A study of Mus musculus with 28 samples.

Results

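Testis RNA of 2 mutant mouse strains that stop in meiosis was set against RNA of a normal adult testis, gene by gene. The arrested group was the 4 messenger RNA libraries labelled with a knockout genotype, of 28 samples in the series. It held Prdm9 KO replicates 1 and 2 (Prdm9-/-) and Hop2 KO replicates 1 and 2 (Hop2-/-), and the comparison was the 1 wild-type library, labelled adult. All 5 came from testis of C57BL/6 mice. The age of the knockout mice, the exact alleles, and whether libraries of 1 genotype came from separate animals are not given in the labels. Test results therefore rest on how far these libraries vary, possibly for technical reasons only, and age cannot be told apart from arrest. The question put to the data was which changes from wild type were present in every 1 of the 4 arrested libraries.

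PRDM9 is the histone methyltransferase that marks the sites of meiotic recombination, and HOP2, encoded by Psmc3ip, helps the recombinase DMC1 carry out strand exchange. Without either protein, breaks in the DNA are not repaired properly, and spermatocytes stop and die in the prophase of the first meiotic division. Mid-pachytene spermatocytes, the meiotic divisions, and the round and elongating spermatids that follow are then missing, while spermatogonia and the somatic cells of the tubules and the interstitium stay. In normal pachytene spermatocytes the X and Y chromosomes are packed into the sex body and silenced, and autosomal retrogenes, which are intronless copies made from messenger RNA of X-linked genes, supply some of the silenced functions.

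Values are in units that the authors called TPM, a unit scaled to the library total. The columns summed to between 825459 and 953598 in the arrested libraries and to 1622660 in wild type, not to 1000000, so they had been rescaled, and depth is unknown. A log2 change is the mean of log2(value + 1) over the arrested libraries minus that of wild type, which understates changes of weakly expressed genes. Of 34839 genes, 16261 averaged 1 or more across the 5 libraries and were tested with limma (Benjamini-Hochberg adjusted p under 0.05), in a fit that assumes the lone wild-type library to vary like the knockouts. For a single value, an exact permutation test of 4 libraries against 1 could not go below p = 0.2. Psmc3ip, targeted in Hop2 KO, had levels of 3.51 and 5.06 there, of 22.8 and 26.4 in the Prdm9 KO libraries, and of 197 in wild type. Prdm9 had levels of 4.73 and 5.93 in its own knockout, of 10.7 and 15.0 in the Hop2 KO libraries, and of 6.20 in wild type. That level checks the Prdm9 label weakly, since a deletion need not lower the count of the remaining exons.

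The arrested libraries differed from wild type in most genes tested. In limma, 6066 genes were higher (37.3% of those tested) and 6702 lower (41.2%). A stricter rule without a test asked each of the 4 libraries to lie at least 2-fold from wild type in value + 1, on the same side. It was met by 3621 genes above wild type (22.3%) and 5127 below it (31.5%), and limma called 3603 and 5120 of these. These genes are called shared from here on. All fold rules below are folds of value + 1, so a weakly expressed gene can pass 2-fold in level and fail the rule. Any 2 arrested libraries differed by a median of 0.104 to 0.197 log2 units per gene, and an arrested library differed from wild type by 1.30 to 1.38. All 4 comparisons use the same wild-type library, so an error in that library would be shared by them too. When the columns were rescaled to the same sum, 65.3% of the genes called were higher, against 47.5% with the values as deposited, and the median log2 change of all genes moved from -0.06 to 0.73. After quantile normalization these values were 63.2% and 0.66. Small changes below are therefore relative to the scaling, and those whose direction depends on it are named.

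**Figure D1:**
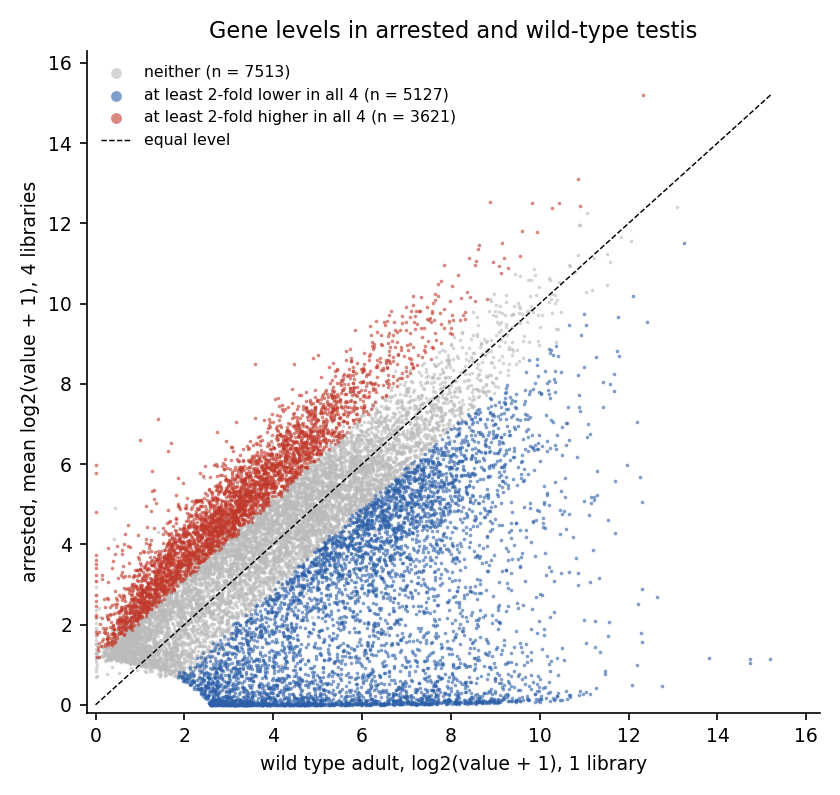
Mean log2(value + 1) over the 4 arrested libraries (vertical axis) against log2(value + 1) in wild type (horizontal axis), 1 point per tested gene. Blue points (5127) were at least 2-fold lower in all 4 libraries, red points (3621) at least 2-fold higher, and grey points neither; many blue points lie at the bottom edge, near 0 in arrested testis, while the red points form a band not far above the line of equal level.

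Losses were deep and gains were shallow. At least 4-fold in every library, 821 genes were higher (5.05%) and 3516 lower (21.6%). At least 16-fold, 7 were higher and 1613 lower, and at least 64-fold 0 were higher and 754 lower. These folds of value + 1 shrink gains from a low wild-type level and losses to a low arrested level alike. Serpina3n, at 111 to 179 against 1.66, was thus not counted at 64-fold. Read as levels, 1269 genes of at least 10 in wild type were under 1 in all 4 arrested libraries, and 11 genes showed the reverse. For a wild-type level of at least 100 the count was 497, and 0 genes were at least 100 in all 4 arrested libraries and under 1 in wild type. The filter on the mean is not symmetric, since a gene at 0 in the arrested libraries needed a level of 5 in wild type to be tested, but this does not touch the classes that start at a level of 10 or more.

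The make-up of the messenger RNA turned over with these changes. Genes shared as lower held 70.2% of the summed signal in wild type. In the arrested libraries they held 11.5% and 11.6% (Prdm9 KO replicates 1 and 2) and 11.2% and 10.5% (Hop2 KO replicates 1 and 2), a mean of 11.2 ± 0.473 (SD, n = 4). Genes shared as higher held 5.20% in wild type and 42.1% to 45.8% in the arrested libraries. These genes were chosen for their direction, so that the shares move as they do is fixed, and only their size is a measurement. With columns rescaled to the same sum the lower class held 59.9% of the wild-type signal. Fewer genes were detected at a level of at least 1 in arrested testis, 14045 to 14585 against 17113. A level of 1 is a smaller share of the larger wild-type column sum, which can raise the wild-type count, and by how much was not tested. The number of genes that held 50% of the signal was 490 to 634 in the arrested libraries and 634 in wild type. Transcripts of mitochondrial genes took 3.32% to 4.51% of the signal against 0.573%, and ribosomal protein genes 6.38% to 8.37% against 3.39%. In bulk tissue, fewer cells of a type and less RNA per cell cannot be told apart.

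**Figure D2:**
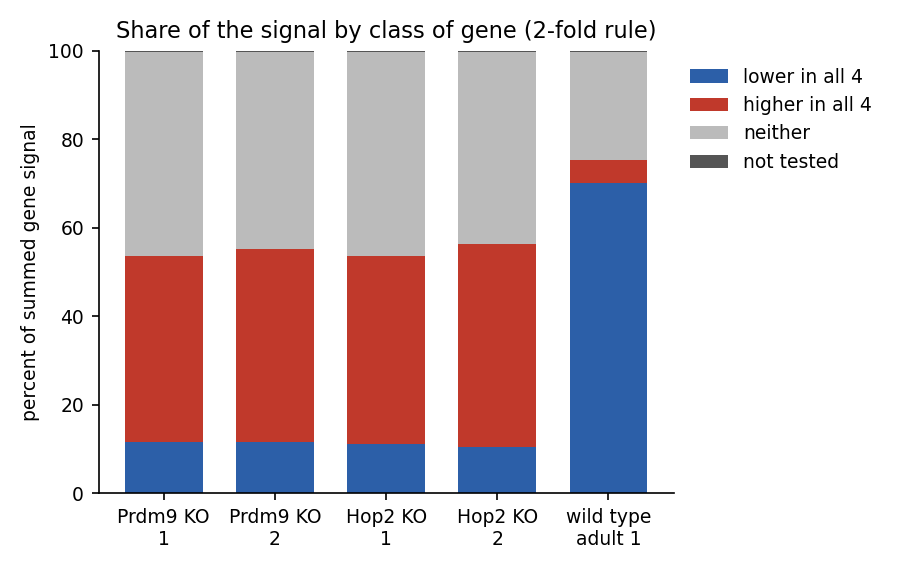
Percent of the summed signal of all genes in each of the 5 libraries (bars) held by genes at least 2-fold lower in all 4 arrested libraries (blue), higher in all 4 (red), neither (grey) or not tested (dark grey). The blue part is 70.2% in wild type and 10.5% to 11.6% in the arrested libraries.

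A single gene took a large part of the arrested signal. Insl3, the insulin-like hormone made by Leydig cells, was 31185, 44712, 21025 and 68224 in Prdm9 KO 1 and 2 and Hop2 KO 1 and 2, against 5124. It was the most abundant gene in each arrested library, with 2.35% to 7.15% of all signal against 0.316% in wild type. Every arrested library was above wild type, the 4 differed widely among themselves, and limma did not call the gene (log2 change 2.88, SE 1.89, adjusted p = 0.220). The call turned with the settings, since limma without its trend of spread on level gave an adjusted p of 0.0141, rescaled columns 0.0224 and quantile normalization 0.000181. Other abundant genes were called higher by limma. Lcn2, the iron-binding protein lipocalin 2, was 5064 to 6872 against 471, Clu (clusterin, secreted by Sertoli cells) 3809 to 7713 against 1239, Gstm1, a glutathione transferase, 4946 to 7207 against 901, Gstm2, of the same family, 2412 to 3328 against 398, Defb19, a beta-defensin, 2618 to 5409 against 977 and Agt (angiotensinogen) 1614 to 4089 against 387. Lcn2 and the genes after it were picked from those called and shared as higher, so that no arrested library overlapped wild type was fixed in advance. Over all genes tested, 44.2% had all 4 arrested libraries above wild type. Among genes shared as lower, Ubb, a ubiquitin gene, kept the highest level in arrested testis, at 3184, 2488, 3275 and 2701 against 9788 (log2 change -1.76, SE 0.42, limma adjusted p = 0.0141).

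Secreted proteins and enzymes were among the largest increases. Serpina3n, a secreted protease inhibitor, was 149, 123, 111 and 179 in the same order, against 1.66 (log2 change 5.71, SE 0.28, limma adjusted p = 6.06e-05). Timp1, the inhibitor of matrix metalloproteinases on the X chromosome, was 106, 66.3, 106 and 114 in the same order, against 0.996. Both genes stood far above wild type in each arrested library. Lrg1, a secreted glycoprotein, was 237 to 552 against 11.0, Igfbp3, which binds insulin-like growth factors, 85.3 to 101 against 2.26, and Tnfrsf12a, the receptor of the cytokine TWEAK, 65.5 to 89.5 against 2.08. Sult1e1, the estrogen sulfotransferase, was 81.0 to 166 against 5.69, and Adh1, an alcohol dehydrogenase, 107 to 164 against 7.96. Ly6d, Plekhh3 and Tnni1, the slow skeletal troponin I, were 23.2 to 92.4, 32.7 to 50.6 and 35.9 to 46.6 against 1.41, 1.43 and 1.48. All of these were picked from genes called by limma and shared as higher, so their calls are no further support. Traj27, a joining segment of the T cell receptor alpha locus, was 16.0 to 44.2 in the arrested libraries and is listed at 0 in wild type. Such short segments are easily given reads of other transcripts, and its value is uncertain.

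Genes of the spermatid were among the deepest losses. Prm2, a protamine that replaces histones in the sperm head, was 0.0766 and 1.10 in the Prdm9 KO libraries, is listed at 0 in Hop2 KO replicate 1, and was 9.54 in Hop2 KO replicate 2, against 37190. Prm1, Tnp1 and Tnp2, the other protamine and the transition proteins, were likewise between 0.0457 and 6.97 in the arrested libraries and 14428 to 27279 in wild type. Smcp, of the mitochondrial capsule of the sperm tail, was 0.0314, 0.206, 0.0315 and 1.89 against 6853, and Odf1, of the outer dense fibres, 0.652 to 1.90 against 4696. In each of these genes Hop2 KO replicate 2 was the highest of the arrested libraries. Oaz3, the germ cell antizyme, was 1.47 to 2.77 against 5062, and Gsg1, Spata20, Znrf4, Irgc1 and Hrasls5 were at most 1.49 in every arrested library against 1917 to 4334 in wild type. The 12 genes named here as the deepest losses were picked from genes called by limma and shared as lower. Their limma adjusted p values, between 3.81e-06 and 0.000701, are therefore no further support.

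Lists of cell type genes were counted in the same fit, beside the 37.3% higher and 41.2% lower over all genes. All 30 spermatid genes and 19 of 20 genes of pachytene and later spermatocytes were lower (median log2 change -8.83 and -5.36), and 0 members of either list were higher. The exception was Dpep3, a membrane dipeptidase, at 58.6, 158, 29.0 and 158, so that both libraries numbered 2 were the higher ones, against 603 (limma adjusted p = 0.0563, and 0.0444 without Hop2 KO replicate 1). Early meiotic prophase genes were split, with 4 of 28 higher and 12 lower (median -0.22). Dmc1, the meiotic recombinase, and Tex11, an X-linked meiotic gene, were higher by 1.76 and 1.88, whereas Syce1, of the synaptonemal complex, fell from 397 to 30.1, 33.6, 30.2 and 33.6, Rec8, the meiotic cohesin, from 111 to 15.8 to 17.7, and Spo11, which makes the breaks, from 71.4 to 10.7 to 13.7. The median of this list depended on the scaling, with 0.58 for rescaled columns, 0.21 after quantile normalization and 0.04 after median-ratio scaling, so no direction is given for the list.

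Genes of spermatogonia, the stem and progenitor cells at the edge of the tubule, were mostly higher. Of 13 tested genes of undifferentiated spermatogonia 8 were higher and 2 lower (median 1.23), and of 10 genes of differentiating spermatogonia 8 were higher and 2 lower (median 1.51). Uchl1, a deubiquitinase of stem spermatogonia, was 401, 309, 386 and 437 against 102, and Kit, the receptor of differentiating spermatogonia, 62.5, 69.7, 56.9 and 53.3 against 12.6. Sall4, a stem cell zinc finger factor, was 8.79 to 12.5 against 2.84. Dmrtb1, a doublesex-related factor that controls meiotic entry and stands in the differentiating list, went the other way, with 34.1 to 45.7 against 1426 (log2 change -5.14, SE 0.17, limma adjusted p = 1.38e-05). Lhx1, a homeobox factor of the undifferentiated list, was 0.0911 to 0.235 against 4.78. The summed level of the differentiating list was thus lower in arrested testis (402 to 463 against 1631) although most of its members were higher.

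Most somatic markers were called higher. All 20 Sertoli cell genes were higher (median 2.12), as were 10 of 12 Leydig cell genes (2.51; Insl3 and Ptgds, the prostaglandin D synthase, were not called), 14 of 15 macrophage genes (2.48), 10 of 12 endothelial genes (1.00), 7 of 10 genes of peritubular myoid and smooth muscle cells (1.34) and 6 of 8 tested genes of interstitial fibroblasts (2.26). By the shared rule of 2-fold in value + 1 in every library, 4 of the 12 endothelial genes were higher. Members such as Emcn, at 1.54 to 2.27 against 0.418, failed it through the added 1. Of 4 tested genes of T and B lymphocytes 3 were called higher and 1 lower (median 0.97), and 1 each by the shared rule, but with a filter on a mean of at least 5 the 1 gene left, Cd3d, was lower. Trf, transferrin, was 129, 97.7, 146 and 113 against 17.1, and Gata1, a Sertoli transcription factor, 99.0, 87.1, 101 and 111 against 15.7. Hsd3b6, the steroid dehydrogenase of adult Leydig cells, was 714 to 1062 against 99.0, and Lyz2, lysozyme of macrophages, 162 to 276 against 20.5. Single members did not follow their lists. Actg2, enteric smooth muscle actin, was 4.38 to 11.2 against 818 in wild type, and Cd3d, a subunit of the T cell receptor complex, was 0.263 to 0.567 against 48.6 while its partner Cd3e was 4.15 to 6.69 against 1.34. Flt1 and Vwf, of endothelium, Fcgr3, of macrophages, and Mfap5, of fibroblasts, were also called lower, but Flt1 turned to a change of 0.02 and 0.27, Vwf to 0.28 and Fcgr3 to 0.09 in at least 1 rescaled fit. Of 5 tested genes of red blood cells 1 was higher and 0 lower, a count that was 5 with rescaled columns, 4 after quantile normalization, 2 after median-ratio scaling and 0 to 2 on leaving out a library. Of 8 epididymis genes 1 was abundant enough to test and was not called, with a summed level of 0.359 to 2.07 against 4.47 over all 8. How far a change in the mix of cells sets the levels of other genes was not tested.

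**Figure D3:**
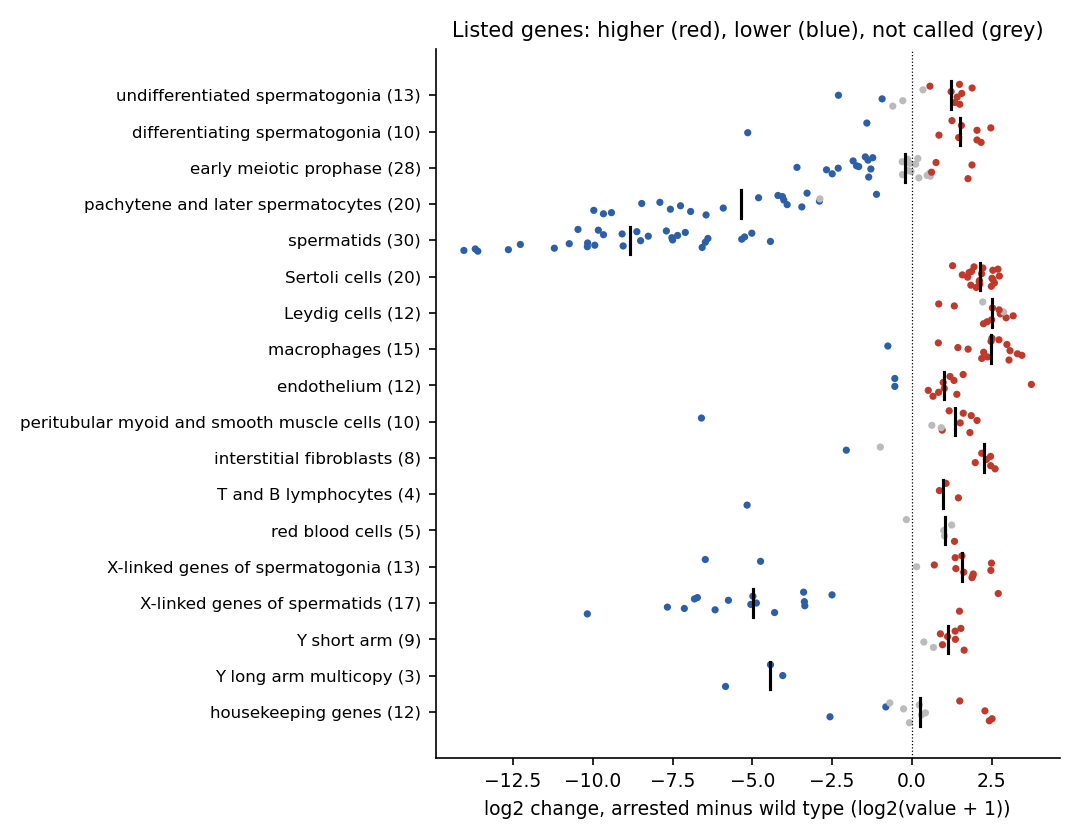
Log2 change of each tested member (points) of 18 gene lists, arrested minus wild type, with the number of tested members in parentheses and the median as a black bar. Red and blue points were called higher and lower by limma, and grey points were not called; all 30 spermatid genes lie on the left and all 20 Sertoli cell genes on the right.

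Some genes often used as references differed widely from wild type. Of 12 housekeeping genes, 4 were higher (33.3%, near the 37.3% of all genes) and 2 lower (median 0.27), and with rescaled columns or after quantile normalization 8 were higher. Gapdh, the glycolytic enzyme, was 1103, 859, 1191 and 1002 against 191, Hprt, of purine salvage on the X chromosome, 60.0, 62.5, 75.9 and 71.3 against 10.9, and Tbp, the TATA-binding protein, 32.6, 32.2, 34.7 and 26.1 against 190. The first pair and Tbp thus stood on opposite sides of wild type by more than 4-fold in each library. Actb had a log2 change of -0.08 and Rplp0 of -0.26, neither called, and both signs turned with rescaled columns (0.80 and 0.61), with quantile normalization (0.68 and 0.48) and with median-ratio scaling (0.19 and 0.01). Polr2a, the large subunit of RNA polymerase II, was 154, 148, 138 and 110 against 110 (log2 change 0.30, SE 0.21, limma adjusted p = 0.231), but was called higher with rescaled columns (1.17, adjusted p = 0.0110) and without Hop2 KO replicate 2 (0.40, adjusted p = 0.0315).

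X-linked genes were higher more often than autosomal genes. Of 772 X-linked genes tested, 490 were higher in limma (63.5%, against 36.7% of autosomal genes) and 188 lower. By the shared rule 49.9% of X-linked genes were higher, against 21.3% over the autosomes and 17.4% to 25.1% on each of the 19 autosomes, and 22.3% were lower, against 31.3%. The median change of X-linked genes exceeded the autosomal median by 1.35 and 1.30 log2 units in Prdm9 KO and by 1.40 and 1.24 in Hop2 KO (mean 1.32 ± 0.0708, SD, n = 4). Each library set against the same wild type thus gave nearly the same excess. X-linked genes held 2.56% to 2.82% of the signal in arrested testis and 1.10% in wild type. The excess of the median was 1.15 with rescaled columns and 1.19 after quantile normalization, but 0.07 without the filter on low values, where many genes near 0 enter, and 0.71 with a pseudocount of 5, which shrinks all changes. Without the filter 24.3% of X-linked and 12.6% of autosomal genes were shared as higher.

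The excess was found at most levels of abundance. When tested genes were cut into 5 equal classes by their mean log2 value over the 5 libraries, 83.3% of the 84 X-linked genes in the top class were shared as higher, against 28.0% of the autosomal genes, and 72.5% against 25.0%, 73.9% against 26.0% and 53.4% against 21.7% in the next 3 classes. In the lowest class, with 223 X-linked genes, both shares were small, 6.73% and 3.46%. There X-linked genes were shared as lower more often than autosomal genes, 61.4% against 51.9%, with median changes of -2.97 and -1.55. The arrested libraries weigh 4 to 1 in such a mean, so a gene higher in arrested testis sits in a higher class on either kind of chromosome. Across the chromosome, the shared higher genes outnumbered the lower ones in most windows of 10 Mb, but not between 10 and 30 Mb nor between 110 and 130 Mb (GRCm38), and were equal in number between 60 and 70 Mb (9 each) and between 170 and 180 Mb (0 each, of 2 genes). Between 120 and 130 Mb, 7 of 8 genes were lower.

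**Figure D4:**
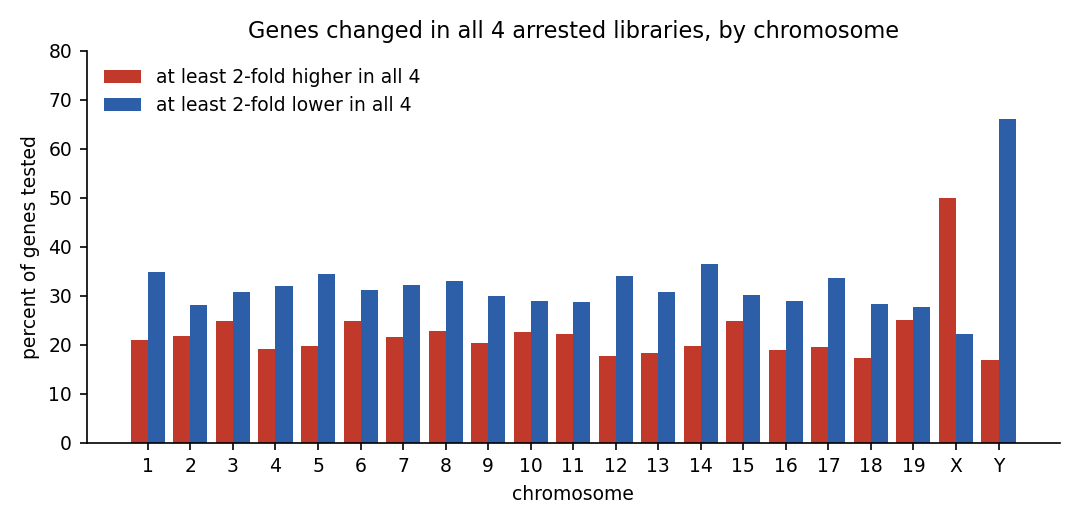
Percent of the tested genes of each chromosome (horizontal axis) that were at least 2-fold higher (red bars) or lower (blue bars) than wild type in all 4 arrested libraries. The X chromosome has 49.9% higher and 22.3% lower, the Y chromosome 66.0% lower, and the autosomes 17.4% to 25.1% higher.

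X-linked genes of 2 lists, made by known time of activity, mostly went in opposite directions. Of 13 X-linked genes active in spermatogonia, 10 were higher (76.9%) and 2 lower (median 1.57). Of the 606 X-linked genes without a predicted gene (Gm) or RIKEN clone name, 436 were called higher (72.0%) and 99 lower (median 1.44). Higher calls were thus not particular to the spermatogonial list. Tktl1, a transketolase-like enzyme, was 56.7, 64.8, 54.0 and 62.3 against 9.71, and Rhox13, a homeobox gene of differentiating spermatogonia, 76.5, 55.4, 73.2 and 61.5 against 11.1. The exceptions, Tex13a and Fthl17a, were at most 0.00812 and 0.836 in the arrested libraries against 88.1 and 44.8. Of 17 tested X-linked genes active in spermatids, 15 were lower and 2 higher. Akap4, the main protein of the fibrous sheath of the sperm tail, was 0.0320, 0.103, 0.0545 and 0.496 against 1333 (log2 change -10.17, SE 0.24, limma adjusted p = 3.84e-06). Cypt3 and Cypt2, of a family of basic spermatid proteins, were at most 0.369 and 0.0469 against 256 and 144. The 2 that were higher were Magea5, of the melanoma antigen family, at 11.8 to 17.4 against 1.32, and Spin2c, a chromatin reader, at 3.82 to 5.46 against 1.08. The names of X-linked genes split as well. Of 166 genes with the name of a predicted gene (Gm) or of a RIKEN clone, 51.8% were shared as lower, and of the 606 others 57.3% were shared as higher. On the autosomes 52.8% of 1145 genes with such names were shared as lower too, so the loss of these genes was not found on the X chromosome alone. Many of the former are near-identical copies, among which reads can be split, so their single values are uncertain.

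The Y chromosome was divided as well. Of 9 tested genes of its short arm 7 were called higher by limma, against 37.3% of all genes, and 0 lower (median 1.12). By the shared rule 3 of the 9 were higher (33.3%, against 22.3% of all genes) and 0 lower. Ddx3y, an RNA helicase, was 15.5, 17.2, 17.7 and 14.5 against 4.52. Rbmy, a germ cell RNA-binding protein, was 1.87, 4.62, 1.76 and 2.30 against 0.201. The call of Rbmy was lost without Hop2 KO replicate 2 (limma adjusted p = 0.0611). All 3 tested genes of the multicopy long arm were lower. Sly was 0.0335, 0.156, 0 and 0.191 against 61.6, Ssty2 is listed at 0 in 3 arrested libraries against 15.6, and Rbm31y is listed at 0 in all 4 against 20.6. These are counted among many near-identical copies, and single copies are uncertain.

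Shared changes were also listed as runs along the chromosomes. Whether the runs are longer than a random order of genes would give was not tested. A run here is a stretch of neighbouring tested protein-coding genes that were all shared in 1 direction. The longest run of lower genes held 33 genes, Y-linked copies over most of the long arm, and the next 17 genes of the X chromosome, all but Btbd35f9 with predicted gene names, between 23882524 and 35427094 (GRCm38), followed by 14 on chromosome 14. Such clusters of copies are not independent genes. The longest runs of higher genes were shorter. Of the protein-coding X-linked genes tested, 52.6% were shared as higher, against 22.2% of the protein-coding autosomal genes. Runs of higher genes are thus more readily met on the X chromosome. The first held 9 genes of the X chromosome from Mtmr1, a phosphatase, to Nsdhl, an enzyme of cholesterol synthesis (71364760 to 72958528), among them the related Magea4 and Magea10, and Cd99l2 at 34.5, 34.4, 38.6 and 33.6 against 7.15. The second held 8 X-linked genes from Rpl10 to Lage3, with Atp6ap1, of the proton pump of vesicles, at 219, 187, 205 and 203 against 41.4. Of 3 runs of 7 genes, 2 were X-linked, from Usp11 to Uxt (20703909 to 20962017, with Timp1) and from Bex2 to Bex3 (136066565 to 136271978, mostly genes of the Bex and Tceal families). The other, on chromosome 17 (34182030 to 34316674), held genes of antigen presentation in the major histocompatibility complex, Psmb9 and Psmb8 of the immunoproteasome, the peptide transporter genes Tap1 and Tap2, and the class II genes H2-Ab1, H2-Aa and H2-Eb1. Psmb8 was 18.6, 20.4, 21.2 and 21.0 against 2.89, and H2-Aa 81.4, 59.5, 66.8 and 69.3 against 11.8. At 4-fold the longest runs of higher genes held 4 genes, 1 of them the Serpina3 cluster on chromosome 12, and the longest run of lower genes 32.

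Retrogenes and their X-linked parents went in opposite directions in most pairs. Of 11 autosomal retrogenes with an X-linked parent, all 11 were lower in limma and 9 were shared as lower. Over all autosomal genes tested these shares were 41.6% and 31.3%. Pgk2 and Pdha2 also stand in the list of pachytene and later spermatocytes, so they are counted in both. Of the parents, 9 were higher (81.8%) and 1 was lower. Of X-linked genes without a predicted gene or RIKEN name 72.0% were called higher. In the 2 most abundant of the 5 classes, 81.4% and 86.9% of X-linked genes were, so higher calls were not particular to parents. Within a library the retrogene had the higher level in 10 of 11 pairs in wild type, and in 1, 1, 2 and 1 pairs in Prdm9 KO 1, Prdm9 KO 2, Hop2 KO 1 and Hop2 KO 2. This count compares levels per transcript length within 1 library, so no scaling of columns can change it. The upstream DNA of 3 such pairs is shown first, with that of a spermatid gene and of a gene of all cells, to show that CpG content differed within pairs, and in either direction. Of 9 pairs with both promoters in the table used, the parent had more CpG in 6 and the retrogene in 3 (Rbmxl2, Utp14b and Cstf2t). Each run is the 250 bases before the RefSeq start (GRCm38.p6), written in the direction of the gene, with CpG dinucleotides in capitals.
Pgk1, chrX:106186850-106187099 (+ strand): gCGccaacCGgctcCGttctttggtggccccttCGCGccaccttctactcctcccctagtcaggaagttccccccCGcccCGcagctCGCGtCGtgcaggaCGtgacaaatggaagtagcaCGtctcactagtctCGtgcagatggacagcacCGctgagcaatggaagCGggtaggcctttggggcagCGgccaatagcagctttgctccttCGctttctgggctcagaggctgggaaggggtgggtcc
Pgk2, chr17:40208610-40208859 (- strand): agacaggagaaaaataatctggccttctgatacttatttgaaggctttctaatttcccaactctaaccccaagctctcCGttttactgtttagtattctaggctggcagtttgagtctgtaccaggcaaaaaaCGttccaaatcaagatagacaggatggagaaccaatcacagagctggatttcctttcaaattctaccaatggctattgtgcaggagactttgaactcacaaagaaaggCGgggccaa
Ubl4a, chrX:74368549-74368798 (- strand): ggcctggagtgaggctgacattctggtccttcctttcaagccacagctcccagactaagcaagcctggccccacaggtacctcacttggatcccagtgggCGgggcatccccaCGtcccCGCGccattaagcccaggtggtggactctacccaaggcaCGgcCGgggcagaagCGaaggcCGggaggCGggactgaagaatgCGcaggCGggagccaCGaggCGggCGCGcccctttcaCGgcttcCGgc
Ubl4b, chr3:107555074-107555323 (- strand): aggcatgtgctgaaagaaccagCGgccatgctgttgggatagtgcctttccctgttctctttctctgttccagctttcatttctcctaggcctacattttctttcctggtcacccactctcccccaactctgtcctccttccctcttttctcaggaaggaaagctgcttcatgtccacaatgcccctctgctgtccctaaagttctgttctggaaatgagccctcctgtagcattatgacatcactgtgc
Rbmx, chrX:57393037-57393286 (- strand): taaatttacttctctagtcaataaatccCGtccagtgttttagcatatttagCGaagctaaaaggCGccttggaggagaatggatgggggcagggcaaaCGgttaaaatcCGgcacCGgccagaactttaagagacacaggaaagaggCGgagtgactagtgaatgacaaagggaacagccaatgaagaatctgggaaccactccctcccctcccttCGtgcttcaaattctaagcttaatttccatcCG
Rbmxl2, chr7:107209195-107209444 (+ strand): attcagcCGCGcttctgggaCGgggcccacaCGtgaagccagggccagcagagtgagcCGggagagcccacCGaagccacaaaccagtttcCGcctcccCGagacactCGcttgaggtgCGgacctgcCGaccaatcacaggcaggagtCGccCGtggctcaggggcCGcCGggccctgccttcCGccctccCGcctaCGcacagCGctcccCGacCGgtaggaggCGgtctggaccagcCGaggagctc
Prm1, chr16:10796824-10797073 (- strand): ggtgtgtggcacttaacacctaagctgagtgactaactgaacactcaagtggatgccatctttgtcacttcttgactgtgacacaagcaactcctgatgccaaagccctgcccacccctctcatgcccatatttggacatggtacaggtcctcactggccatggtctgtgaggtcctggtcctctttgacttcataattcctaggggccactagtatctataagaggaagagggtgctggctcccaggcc
Polr2a, chr11:69758634-69758883 (- strand): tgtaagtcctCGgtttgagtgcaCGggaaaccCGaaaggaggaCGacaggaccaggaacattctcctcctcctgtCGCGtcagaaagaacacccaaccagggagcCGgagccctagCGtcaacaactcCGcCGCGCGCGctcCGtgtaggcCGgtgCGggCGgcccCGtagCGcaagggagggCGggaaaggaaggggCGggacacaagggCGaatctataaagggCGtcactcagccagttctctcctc
These stretches hold 17 CpG in Pgk1 and 3 in Pgk2, 17 in Ubl4a and 1 in Ubl4b, 9 in Rbmx and 23 in Rbmxl2, 0 in Prm1 and 23 in Polr2a.

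Pgk1, the phosphoglycerate kinase of glycolysis, was 103, 78.6, 121 and 112 in the arrested libraries, in the order Prdm9 KO 1 and 2 and Hop2 KO 1 and 2, against 17.7 in wild type (log2 change 2.47, SE 0.25, limma adjusted p = 0.000710). Its retrogene Pgk2 was 0.204, 0.344, 0.261 and 0.516 against 1076 (log2 change -9.67, SE 0.16, adjusted p = 9.98e-07). The retrogene thus supplied 98.4% of the summed level of the pair in wild type and 0.199% to 0.457% in arrested testis. G6pdx, the first enzyme of the pentose phosphate pathway, was 70.0, 58.9, 72.9 and 64.5 against 10.4, and its copy G6pd2 at most 0.0386 against 53.5, so that the copy held 83.7% of the pair in wild type and at most 0.0599% in the others. Cetn2, a centrin of the centriole, was 24.0 to 29.2 against 7.64, and Cetn1 0.380 to 0.801 against 383.

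The other pairs varied. Pdha1, of the pyruvate dehydrogenase complex, was 29.8, 29.2, 32.4 and 27.4 against 5.99, while Pdha2 was 26.4, 27.0, 35.6 and 26.4 against 220, so the pair stood near balance in arrested testis, with 47.0% to 52.4% from the copy against 97.3%. Rpl10 and Rpl10l, of the large ribosomal subunit, were 209 to 331 and 96.1 to 122 against 38.9 and 640. Rbmxl2 held most of its pair with Rbmx, an RNA-binding protein, in every library (65.6% to 69.9% against 97.5%). Timm8a1, of protein import into mitochondria, was 9.72 to 13.0 against 1.53 and Timm8a2 2.06 to 2.34 against 31.6. Ubl4b was 0.0766, 0.155, 0.0467 and 0.219 against 481, but its parent Ubl4a, of the pathway that inserts tail-anchored proteins, was only slightly higher, 31.1 to 40.7 against 24.0 (log2 change 0.53, SE 0.16, adjusted p = 0.0316), a call that was lost when Prdm9 KO replicate 1 (0.0682) or Hop2 KO replicate 1 (0.0716) was left out. Utp14a, of ribosome assembly, was not called (0.41, SE 0.17, adjusted p = 0.0838) but had a change of 1.13 with rescaled columns (adjusted p = 0.00241), while its copy Utp14b was 2.29 to 3.24 against 9.61.

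Exceptions were found on both sides. Cstf2, of the cleavage machinery of messenger RNA ends, was the 1 parent that was lower, at 61.5, 46.4, 53.5 and 38.3 against 129 (log2 change -1.37, SE 0.27, limma adjusted p = 0.00711), and it exceeded its copy Cstf2t in every library, wild type included. Its call was lost with rescaled columns (log2 change -0.51, adjusted p = 0.178) and after quantile normalization (-0.47, adjusted p = 0.166). Cstf2t was 17.4 to 21.2 against 31.5, and Rps4l, a copy of the ribosomal protein gene Rps4x, was 259 to 294 against 517. The lower calls of these copies depended on the scaling, as Cstf2t had a change of 0.14 with rescaled columns, and Rps4l had 0.00 with rescaled columns and 0.27 after quantile normalization. Rps4x itself was 283 to 376 against 42.1 (log2 change 2.91). Reads of a retrogene and its parent can be exchanged where their sequences are near-identical, which was not tested.

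**Figure D5:**
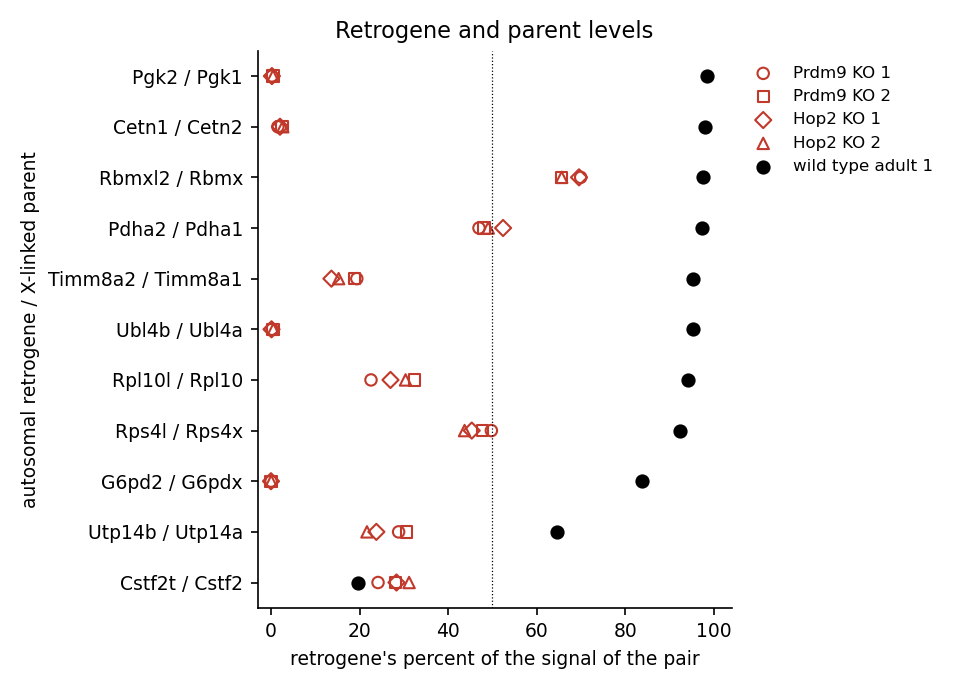
The retrogene's percent of the summed level of each pair of autosomal retrogene and X-linked parent (horizontal axis) in the 4 arrested libraries (open red symbols) and in wild type (black), with a dotted line at equal levels. In wild type 10 of 11 pairs lie right of the line, and in each arrested library 1 or 2 do.

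Promoters of the changed genes differed in base composition. RefSeq windows of 300 bases, 250 before the start and 50 after it, were found for 11801 of 14661 protein-coding genes tested (80.5%), and the set with the lowest coverage, genes shared as higher, had 2771 of 3463. These comparisons are descriptions, without a test. The median window held 19 CpG over all genes tested, 16 over genes shared as lower and 18 over genes shared as higher. It held 12 over genes lower by at least 4-fold in all libraries, and 4 over the 383 genes that were at least 100 in wild type and under 1 in all arrested libraries. A ratio of observed to expected CpG of at least 0.6, a usual mark of a CpG island, was found in 66.0% of all genes tested, 56.7% of genes shared as lower, 60.7% of genes shared as higher and 12.5% of those 383. Genes shared in neither direction had the highest share, 74.9%. Genes at least 4-fold from wild type had low shares in both directions, 46.1% when lower and 45.3% when higher, so fewer CpG went with large changes of either sign. Prm1, printed above with 0 CpG, reached 6.55 in 1 arrested library and is not among the 383.

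Short motifs were counted in the same windows on both strands. The GC box bound by SP1 (GGGCGG) was in 60.3% of all genes tested, 49.0% of genes shared as lower, 66.3% of those shared as higher and 18.3% of the 383 genes that were near 0 in arrested testis; it overlaps with CpG content by its letters. The ETS motif (CCGGAAGT), which also holds a CpG, was in 7.57%, 6.36%, 4.37% and 0.261%. The SOX core (ACAATGG), without a CpG, was in 2.42% of all tested, 3.94% of shared lower, 1.73% of shared higher genes and 8.36% of the 383. The PU.1 motif (GAGGAAGT) and CCAAT, also without a CpG, did not follow it. PU.1 was in 2.76%, 2.45%, 2.92% and 1.83% of these sets, and CCAAT in 38.9%, 39.0%, 38.8% and 38.1%. Part of the X-box bound by RFX factors (GTTGCCATG), also without a CpG, was in 1.65% of shared lower and 0.397% of shared higher genes. It was in 0.737% of all tested and in 1.57% of the 383 (6 genes), and so went the same way as the SOX core. The full cyclic AMP element (TGACGTCA), the site of CREM, the regulator of spermatid genes, was in 3.22%, 2.31% and 2.97% of shared lower, shared higher and all tested genes, shares that lay close together, and in 1.57% of the 383. Over all 27025 promoters in the table the shares were 35.9% (GGGCGG), 3.99% (CCGGAAGT), 3.67% (ACAATGG), 0.766% (GTTGCCATG), 3.25% (GAGGAAGT), 38% (CCAAT) and 1.85% (TGACGTCA). In all 11 motifs were counted. The other 4, given in the order all tested, shared lower, shared higher and the 383, were the MYB motif (TAACGG; 3.56%, 3.94%, 2.81% and 1.57%), the E2F motif (TTCCCGCC; 4%, 3.47%, 4.22% and 0.783%), the SF1 motif (CAAGGTCA; 1.08%, 1.27%, 1.23% and 1.57%) and the E-box (CACGTG; 9.94%, 8.81%, 10.3% and 7.05%). Over all promoters of the table their shares were 2.68%, 2.27%, 1.52% and 7.24%. The median GC content of the windows was 60% over all tested, 57.3% over shared lower, 60.7% over shared higher genes and 51% over the 383. Whether the share of any motif follows GC content was not tested. A match is a description of letters, not of a bound site.

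Noncoding and poorly annotated transcripts were counted by the shared rule as well. Of 92 tested long noncoding RNA genes, 59 were shared as lower (64.1%) and 9 as higher, with a median change of -2.66, and of 505 genes with RIKEN clone names 315 were lower (62.4%) and 50 higher. Over all genes these shares were 31.5% lower and 22.3% higher, but over the least abundant 3253 genes, the lowest of the 5 classes of mean level, 53.9% were lower and 3.44% higher. Whether the low level of these transcripts accounts for their share was not tested. Protein-coding genes with RIKEN names showed nearly the same share, 60.9% of 409. Long noncoding RNAs held 0.164% to 0.200% of the signal in arrested testis and 0.555% in wild type. Pseudogenes that RefSeq marks as transcribed were lower in 75 of 134 cases and higher in 8.

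The arrested libraries were close to each other in most of these genes. The highest and lowest of the 4 lay within 1 log2 unit of each other for 95.5% of shared higher and 96.6% of shared lower genes. Prdm9 KO replicate 2 was the lowest of the 4 in 48.5% of shared higher genes, and Hop2 KO replicate 2 the highest in 34.6% of shared lower genes. The libraries that bear replicate number 2 had the higher Insl3 levels, 44712 and 68224 against 31185 and 21025. The summed level of the 30 spermatid genes was 90.6, 106, 92.7 and 139, against 146800 in wild type, in the order Prdm9 KO 1 and 2 and Hop2 KO 1 and 2. Leaving aside predicted genes and pseudogenes, the genes called by limma with the widest range among the 4 were Prm2, Tnp2, Prm1, Psmc3ip, Cldn3 and Klk1b27. Cldn3, a tight junction protein, was 25.8, 9.53, 53.9 and 12.5 against 240, and Klk1b27, a kallikrein, was 532, 132, 693 and 343 against 21.3. Without Hop2 KO replicate 2 the limma calls of Psmc3ip (adjusted p = 0.0661) and Cldn3 (adjusted p = 0.0594) were lost. In Cldn3 and Klk1b27 the replicates numbered 1 were above those numbered 2 in both genotypes. What the numbers stand for is not given in the labels.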

How the data were processed

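Gene levels of 5 messenger RNA libraries were analysed, and the other 23 samples of the series were not analysed here. Reads were processed by the authors with CASAVA, kallisto and sleuth, and the mouse build named is GRCm38 (mm10), per the submitters' processing notes, which give no versions. The deposited values are called TPM per the file headers, but the column sums differ, so they were treated as a signal, and how the authors scaled it is not stated in those notes. Depth is unknown, and no counting interval can be given. Columns of per-sample values left unused numbered 0.

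Values were transformed to log2(value + 1), genes with a mean under 1 were left out, and the groups were compared by limma (version 3.58.1, run in R 4.3.3), using its trend of spread on level and Benjamini-Hochberg adjustment over all genes tested (threshold 0.05). The code was tested on simulated data with known changes. The 4 libraries against 1 left the spread to be estimated from the knockouts alone. Gene names and starts came from RefSeq tables (GRCm38.p6), which matched 15724 of 16261 tested genes. Promoters were matched by symbol.

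The members and lists were chosen with earlier results of these data known. Genes were named by a rule: per direction the 12 largest changes and the 6 most abundant genes among those called and shared, taking no predicted genes, RIKEN clones or pseudogenes; from each list the 3 largest changes; all retrogenes, parents and housekeeping genes; the 6 widest ranges; and genes of the 3 longest runs per direction. Not all of these are printed. Dmc1, Tex11, Dpep3, Ptgds, Fcgr3, Flt1, Vwf, Mfap5, Magea5, Spin2c and Prdm9 were named after their values were seen, or as the targeted gene. Alternatives were other pseudocounts, filters and scalings, a fit without the trend, covariates for replicate number and genotype, and leaving out each knockout library.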

Additional observations from a re-analysis of the deposited data

Results flagged for a closer look

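In 9 of 123 genes and shares examined, 1 arrested library stood far from the other 3, with a gap to the nearest one above the critical share of the whole range in Dixon's test, on log2 values. Chance flags about 1 in 20 groups of 4. Hop2 KO replicate 2 was the highest in Gsg1 (1.49, the others 0.120 to 0.199), Smcp (1.89, the others 0.0314 to 0.206), Spata20 (0.663, the others 0.147 to 0.188) and Ssty2 (0.0211, the others listed at 0). Prdm9 KO replicate 2 was the lowest in Timp1 (66.3, the others 106 to 114) and in Lyz2 (162, the others 254 to 276). Hop2 KO replicate 1 was the highest in Pdha2 (35.6, the others 26.4 to 27.0) and in Btbd35f9 (0.000895, the others listed at 0), and Prdm9 KO replicate 1 in Tex13a (0.00812, the others listed at 0). In Ssty2, Btbd35f9 and Tex13a the other 3 libraries are at 0, so any value above 0 would be marked, and these say nothing of how far a library stands off. Over all tested genes 990 were flagged in this way (6.09%), most often with Hop2 KO replicate 2 as the highest (287 genes).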

How the results depend on the processing

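Of 403 alternative values of the comparisons, 370 kept their direction and size class, 30 moved and 3 reversed. The excess of the X-linked median over the autosomal one was 1.70 with a pseudocount of 0.1, 0.71 with 5, 0.068 with no filter, 1.79 with a mean of at least 5, 1.15 with rescaled columns, 1.19 after quantile normalization and 1.25 after median-ratio scaling. The share of X-linked genes shared as higher was 31.5% with a pseudocount of 5 and 24.3% with no filter. Genes shared as higher numbered 2317 with a pseudocount of 5, 6044 with rescaled columns, 6004 after quantile normalization and 821 at 4-fold. With no filter 12939 genes were called lower. The share of wild-type signal in shared lower genes was 59.9% with rescaled columns and 59.4% after quantile normalization. The early meiotic prophase list reversed, with 8 lower and 13 higher for rescaled columns and 10 lower and 11 higher after quantile normalization. Red blood cell genes called higher numbered 5, 4 and 2 under the 3 scalings, and housekeeping genes 8 with rescaled columns and 8 after quantile normalization. With a mean of at least 5, endothelial genes called higher numbered 5, lymphocyte genes reversed to 0 higher and 1 lower, and Y long arm genes called lower numbered 1. With a pseudocount of 0.1 the tested epididymis gene was called (1 of 1). At 4-fold, 46.1% of promoters of lower genes met the CpG ratio and the longest higher run was 4.

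Leaving out 1 library gave 5629 to 5988 genes higher and 6617 to 6892 lower, 0 to 2 red blood cell genes higher and 0 to 1 epididymis gene. Among named genes, signs turned with rescaled columns in Actb (0.80), Rplp0 (0.61), Cstf2t (0.14), Fcgr3 (0.085), Flt1 (0.020), Vwf (0.28) and Rps4l (0.0027), after quantile normalization in Actb (0.68), Rplp0 (0.48), Flt1 (0.27) and Rps4l (0.27), and after median-ratio scaling in Actb (0.19) and Rplp0 (0.0085). The cause was not tested. With a replicate block 6327 genes were higher and 6852 lower. Deviations of same-numbered libraries correlated at 0.415, with only 2 pairs, and the labels do not say that a number is shared. The block lost the calls of Ubl4a (adjusted p = 0.0522) and Psmc3ip (0.0522) and gained those of Dpep3 (0.00509) and Ptgds (0.00595).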

Other observations

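Gene families, grouped by the stem of their symbols after the values were seen, gave values with no test, and these 3 were picked from 182 stems. All 26 tested Cfap genes, of cilia and flagella, were called lower (median log2 change -5.45), as were 12 of 13 Dnah genes (axonemal dynein heavy chains), against 41.2% of all genes tested. All 11 Hsd genes, hydroxysteroid dehydrogenases, were called higher (median 2.51), against 37.3% of all genes tested.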
